A study of Paralichthys olivaceus with 24 samples.

Results

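The genes described here are fbxo32, pik3r1 and sesn1, 3 of the 11646 genes in the deposited muscle table of olive flounder (Paralichthys olivaceus), a farmed flatfish. They were taken by their annotated symbols, and they were put together because earlier results of the same table had shown them lower in warmer water. Their levels in the muscle libraries chose them, so those levels are given as a description with no test. All 3 symbols were found, each in 1 row.

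The study warmed flounder from 12 °C and sequenced RNA from gill, liver and muscle. Per the labels, fish aged 9 months were divided into 8 treatments of 15 fish and acclimated to 12 °C. An acute regime moved fish to 18, 23 and 28 °C at 3 h intervals, and a chronic regime raised the water by 3 °C per h and held it for at least 20 h. The samples used here are the muscle samples of the series titled C at 12, 18, 23 and 28 °C, and the labels do not spell out which regime the letter C stands for. Each temperature has 1 column of RPKM values (reads scaled to transcript length and library size), called a library here. Whether a library pools fish or combines the duplicates that the design speaks of is not stated, so no value below has a replicate and no test between temperatures was made.

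Muscle mass depends on the balance between the making and the breakdown of protein. Insulin and insulin-like growth factors act through receptor adaptors on phosphoinositide 3-kinase (PI3K), whose product recruits the kinase AKT. AKT activates mTOR, the kinase that drives protein synthesis, and in mammals keeps FoxO transcription factors out of the nucleus, where they would switch on genes of muscle wasting. fbxo32, also called atrogin-1, is the F-box subunit of a muscle ubiquitin ligase that marks proteins for the proteasome and is a FoxO target in mammals. pik3r1 encodes a regulatory subunit that brings the catalytic subunit of PI3K to activated receptors and adaptors. sesn1 is a sestrin, a stress-induced protein that in mammals is a target of p53 and FoxO factors and restrains mTOR when amino acids are scarce.

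Depth was similar: relative to 12 °C it was 1.004 at 18 °C, 0.982 at 23 °C and 1.014 at 28 °C, as read from the steps of genes with few reads. Absolute depth is unknown. Skeletal muscle markers were abundant: 10 markers summed to 6772, 5860, 5277 and 5238 RPKM from the coldest to the warmest library. At 28 °C much of that sum was smyd1, a muscle methyltransferase gene at 36.7, 42.7, 56.0 and 2429 RPKM, and without it the other 9 summed to 6736, 5818, 5221 and 2809 RPKM. Of the 10, 2 were 2-fold higher at 28 °C, smyd1 and acta1a (66.9 and 308.9 RPKM). A further 2 were lower, pvalb1 (6441 and 2336 RPKM) and cav3 (98.7 and 24.4 RPKM). pvalb1 alone made up most of the sum without smyd1. A further pair, mylpf and atp2a1l, reached 25770 and 15859 RPKM at 12 °C but were listed at 0 in the 18 °C and the 23 °C library, respectively. At 28 °C mylpf and atp2a1l were at 20633 and 14940 RPKM. The 35 liver markers in the table summed to 76.6 RPKM at 12 °C, 5404 at 18 °C, 74.9 at 23 °C and 540.7 at 28 °C, with 15, 34, 16 and 32 of them at 1 RPKM or more. The 6 exocrine pancreas markers followed with sums of 10.5, 178.0, 15.1 and 42.0 RPKM. The 7 leukocyte markers summed to 16.2, 6.69, 5.56 and 29.1 RPKM, the 4 adipocyte markers to 6.77, 13.1, 8.67 and 39.9 RPKM, and the 1 connective tissue marker, postnb, was at 57.4, 52.1, 27.8 and 12.6 RPKM. The 18 °C library thus stands apart in liver RNA, and results that rest on it are set beside the 23 °C library. Genes have a row only if 2-fold apart in some comparison of the authors with 12 °C. Rows exist for 12 of 36 muscle marker symbols, 35 of 36 liver, 7 of 17 leukocyte, 4 of 10 adipocyte and 1 of 12 connective tissue. The sums thus hold markers selected for a difference and do not measure tissue content.

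The ubiquitin ligase gene fbxo32 had levels of 103.4, 16.2, 12.7 and 17.2 RPKM in the 12, 18, 23 and 28 °C libraries. The coldest library was high and the 3 warmer libraries were all low, at 15.7%, 12.3% and 16.6% of it. The log2 folds against 12 °C, computed on RPKM + 1, were -2.60, -2.93 and -2.52. In RPKM itself, without the added 1, the differences were 6.37-fold, 8.14-fold and 6.02-fold. Between the warmer libraries the differences were small: the log2 fold was -0.33 from 18 to 23 °C and 0.41 from 23 to 28 °C. The step at 23 °C had no stable sign, since the value became 0.01 when the libraries were scaled by their median ratios. The level at 23 °C, where the liver markers were at their 12 °C level, was as low as that at 18 °C. The leukocyte marker sum was also lower than at 12 °C in both libraries, at 0.413 and 0.343 times. The part of liver and leukocyte RNA in the fbxo32 values was not tested.

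The sestrin gene sesn1 had levels of 52.7, 25.1, 14.1 and 6.62 RPKM in the 12, 18, 23 and 28 °C libraries. Every warmer library was lower than the one before it, at 0.476, 0.563 and 0.468 times its level in turn. The log2 folds against 12 °C were -1.04, -1.83 and -2.82. The 18 °C value lay just past the 2-fold line. Median scaling brought it to -0.88 and scaling by the summed level of other genes to -0.72, short of 2-fold. That sum keeps mylpf, which is listed at 0 at 18 °C, and its factor there was 0.797 of that at 12 °C. Without rows at 0 in any library, a setting chosen after seeing the data, the factor was 1.01 and sesn1 stayed past 2-fold. The last step had a log2 fold of -0.99 on RPKM + 1, just short of 2-fold, and -1.03 after median scaling. In RPKM itself, without the added 1, its ratio of 0.468 was past 2-fold.

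The PI3K subunit gene pik3r1 had levels of 43.2, 46.4, 24.0 and 3.39 RPKM in the 12, 18, 23 and 28 °C libraries. The 12 and 18 °C libraries were both high, the 23 °C library was intermediate and the 28 °C library was low. Against 12 °C the log2 folds of RPKM + 1 were 0.10, -0.82 and -3.33. In RPKM itself, without the added 1, the difference between 12 and 28 °C was 12.7-fold. The step from 23 to 28 °C alone had a log2 fold of -2.51, with a ratio of 0.141 between the levels. At 28 °C the liver sum was 7.06 times that at 12 °C and the muscle marker sum 0.773 times, or 0.417 times without smyd1. The sum without smyd1 was mostly pvalb1. The muscle markers mylpf and atp2a1l, outside these sums, had log2 folds of -0.32 and -0.09 at 28 °C. The adipocyte sum was 5.89 times its 12 °C level, and most of the rise was lipe, at 2.37 and 27.3 RPKM at 12 and 28 °C. The other adipocyte markers were plin2 (3.02 and 10.3 RPKM), dgat2 (1.15 and 1.76 RPKM) and cidec (0.225 and 0.451 RPKM). postnb was at 0.220 times its 12 °C level. The part of all these markers in the 28 °C values of the 3 genes was not tested. In bulk muscle, fewer cells of a type and less RNA per cell cannot be told apart.

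**Figure D1:**
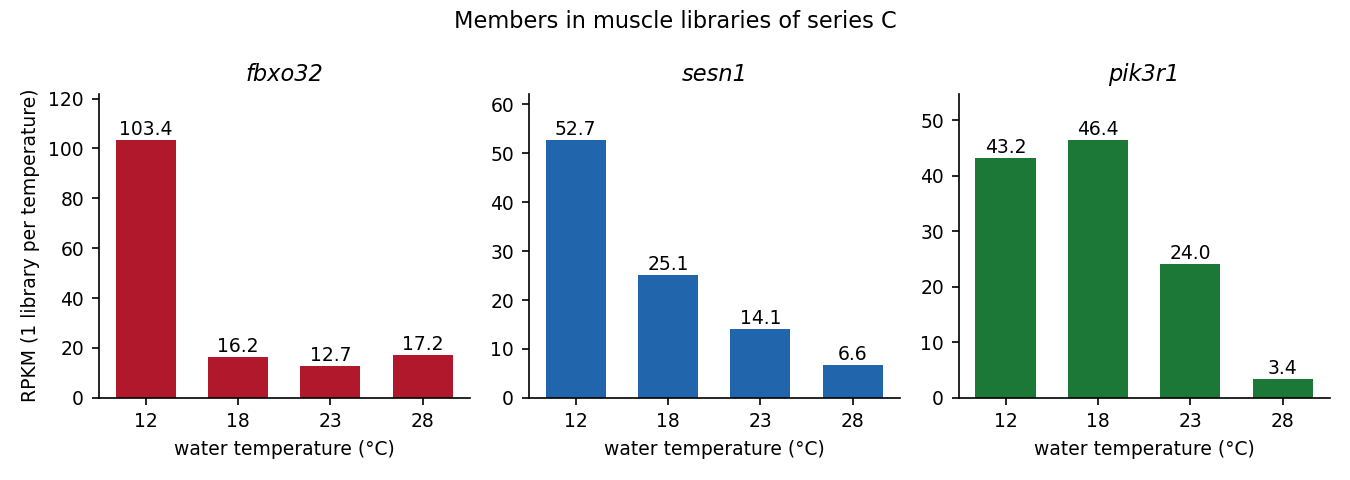
Bars give the RPKM of fbxo32, sesn1 and pik3r1 (vertical axis, starting at 0, with its own scale in each panel) in the muscle library at each water temperature, 1 library per bar. fbxo32 is low from 18 °C on, sesn1 is lower at each step, and pik3r1 stands at 46.4 RPKM in the 18 °C library and at 3.39 RPKM in the warmest.

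The 3 genes thus ended low at 28 °C by different routes. By 18 °C fbxo32 had covered 101.1% of its difference between 12 and 28 °C, sesn1 59.9% and pik3r1 -8.16%, the negative sign marking a level above that at 12 °C. The order of the levels crossed. At 12 °C fbxo32 stood at 1.96 times sesn1 and 2.40 times pik3r1, and at 18 °C at 0.647 and 0.350 times. At 28 °C it was again the highest, at 2.60 times sesn1 and 5.06 times pik3r1. Without replicates it cannot be said which neighbours in these orders differ beyond their spread.

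The call used here needs a fold of RPKM + 1 of at least 2 and a mean over the pair of at least 1 RPKM. By this rule 2 of the 3 genes were lower at 18 °C, where 2.68% of the 4097 genes with such a mean were lower. At 23 °C 2 of the 3 were lower, against 10.8% of 3793 genes, and at 28 °C all 3, against 22.5% of 4378. In the other direction 7.66%, 2.98% and 34.2% of genes were higher at these temperatures, and 0 of the 3. From 18 to 23 °C 0 of the 3 were lower or higher, against 9.01% and 0.742% of 3906 genes. From 23 to 28 °C pik3r1 alone was lower and 0 were higher, against 7.89% and 35.6% of 4070. In the authors' deposited table, counting values of at least 2-fold, 2, 2 and 3 of the 3 were lower at 18, 23 and 28 °C, against 15.7%, 17.0% and 36.1% of the 11646 rows, with 20.5%, 22.0% and 40.6% higher. The genes were chosen for such values, so nothing is read from these counts. In the authors' deposited table the 3 genes lie in the same cluster, number 2 of 7, with 3553 rows. Its median log2 folds of RPKM + 1 were -0.15, -0.35 and -0.67 at 18, 23 and 28 °C.

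**Figure D2:**
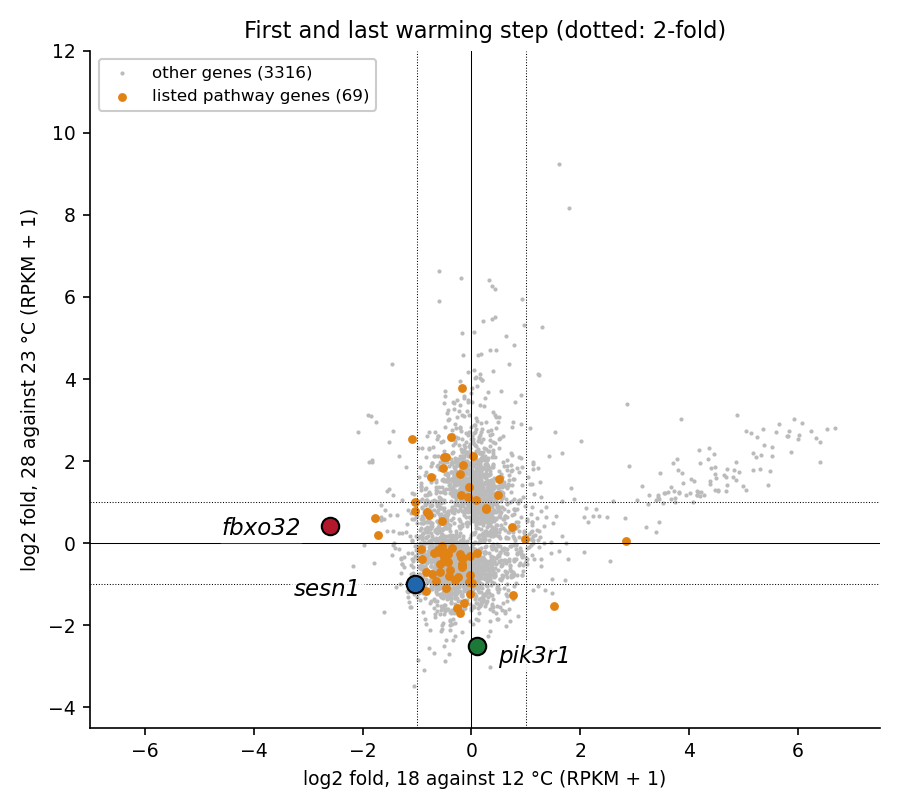
Each point is 1 of 3388 genes with values above 0 in all libraries and a pair mean of at least 1 RPKM at both steps. The horizontal axis is the log2 fold of RPKM + 1 from 12 to 18 °C and the vertical axis that from 23 to 28 °C, which share no library. Orange points are 69 listed pathway genes and dotted lines mark 2-fold: fbxo32 lies far to the left at -2.60 with 0.41 on the vertical axis, pik3r1 lies near 0.10 and far down at -2.51, and sesn1 lies near 2-fold on both.

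Among listed ubiquitin ligases of muscle wasting, fbxo30a and trim55 were lower at 28 °C. The 1 gene higher was nedd4l, a separate gene that entered the list through the likeness of its name to nedd4. Of 21 ligase symbols known for the flounder, 11 other than fbxo32 have a row. The table is limited to genes that passed 2-fold in some comparison of the authors with 12 °C, so a gene without a row had no such difference listed or was not measured. At 18 °C 1 of the 6 with the minimum level was lower and 0 were higher, and at 28 °C 2 of 7 were lower and 1 was higher, where 22.5% of all genes were lower and 34.2% higher. fbxo30a, the flounder copy of a ligase gene induced in wasting mouse muscle, measured 10.3, 2.43, 1.82 and 2.24 RPKM from the coldest to the warmest library. It had log2 folds of -1.72, -2.01 and -1.81, and fbxo32 stood at 10.02, 6.68, 7.0 and 7.68 times its level. Its duplicate fbxo30b did not follow, at 1.33, 1.30, 0.995 and 0.426 RPKM.

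Other ligase genes went their own way. trim55, a ligase of the sarcomere, had 15.4 RPKM in the coldest and 4.37 RPKM in the warmest library (log2 fold -1.62). The scaffold subunit gene cul1, which holds F-box ligases together, was at 66.7 and 25.0 RPKM (-1.38, and -0.88 after median scaling). The ligase gene nedd4l was in the opposite direction, at 6.28 and 23.7 RPKM (1.76), with its relative nedd4 at 3.01 and 6.67 RPKM (0.94). nedd4, the gene meant by the list, was thus short of 2-fold on RPKM + 1, and at 1.40 after median scaling. In RPKM itself, without the added 1, nedd4 was past 2-fold. The muscle wasting ligase gene trim63b has no row. Of the 15 other F-box only genes in the table, 5 stayed below 1 RPKM throughout and could not be called. By the 2-fold rule 1 was lower at 18 °C, 2 at 23 °C and 3 at 28 °C, where 2.68%, 10.8% and 22.5% of all genes were lower. At 28 °C 2 were higher, where 34.2% of all genes were.

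Genes of proteolysis and autophagy, the other routes of protein breakdown, split in direction at 28 °C. Of the autophagy and mitophagy genes with the minimum level, 0 of 13 were 2-fold apart at 18 °C and 0 of 14 at 23 °C. At 28 °C 4 of 14 were higher and 6 lower, where 34.2% of all genes were higher and 22.5% lower. The median log2 fold of the list was -0.81 against 0.02 over all rows. Among the lower genes wipi2, ulk2, calcoco1a and atg13, named after their values were seen, lay near the 2-fold line at -1.07, -1.30, -1.23 and -1.23. The autophagy receptor gene sqstm1 measured 16.0, 14.1, 9.08 and 137.6 RPKM, and the lysosomal membrane gene lamp1b 16.4, 12.5, 22.3 and 138.5 RPKM. On the lower side, the receptor gene calcoco1b measured 185.4, 123.3, 96.3 and 58.8 RPKM and the membrane carrier gene atg9a 16.0, 9.80, 7.73 and 3.63 RPKM. The calpain gene capn1a was lower at 28 °C (19.8 and 7.17 RPKM, log2 fold -1.35, and -0.88 after median scaling), and its duplicate capn1b was higher (0.0559 and 4.44 RPKM). The lysosomal protease gene ctsd was at 45.1 and 103.6 RPKM.

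FoxO factors and their textbook targets also went both ways. Of 10 genes with the minimum level at 28 °C, fbxo32 and sesn1 aside, 4 were higher and 2 lower, where 34.2% of all genes were higher and 22.5% lower, so the list was near the background. The median over its 16 rows was 0.03. The factor gene foxo3b measured 15.7, 8.35, 5.21 and 1.78 RPKM, with log2 folds of -0.83, -1.42 and -2.58. Its value at 23 °C was -0.97 after median scaling, short of 2-fold. The target gene pdk2a, a kinase that shuts off pyruvate dehydrogenase, measured 15.8, 7.91, 2.54 and 1.72 RPKM. In the opposite direction, the insulin receptor adaptor gene irs2 was at 0.775 and 4.77 RPKM in the coldest and warmest libraries, and the mitophagy receptor gene bnip3 at 21.2 and 65.5 RPKM. The relatives foxo1a and pdk4, named after their values were seen, did not follow foxo3b and pdk2a. foxo1a measured 3.22, 1.41, 1.32 and 2.93 RPKM (log2 fold -0.10 at 28 °C). pdk4 measured 1.48, 3.14, 2.44 and 3.55 RPKM (0.88).

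Upstream of PI3K, both growth hormone receptor genes were lower in the warmest library. The growth hormone receptor genes ghr and ghrb had 9.60 and 15.2 RPKM in the coldest library and 1.59 and 3.79 RPKM in the warmest (log2 folds -2.03 and -1.76). The insulin receptor gene insrb, at 2.14, 1.07, 0.567 and 0.902 RPKM, was short of 2-fold on RPKM + 1 at 28 °C (-0.72). In the whole list of ligands, binding proteins and receptors, 1 of 5 genes with the minimum level was higher at 28 °C and 2 were lower. Over all genes 34.2% were higher and 22.5% lower, so nothing is read from so few. At 18 °C 3 of 7 were higher, against 7.66% of all genes. They were the growth factor gene igf1 and the binding protein gene igfbp2b, both named after their values were seen, and igfbp2a at 0.225 and 5.35 RPKM. The same library had the liver marker sum of 5404 RPKM, whose part was not tested. The adaptor list had 2 of 4 genes higher at 28 °C and 0 lower, few genes beside the shares of 34.2% and 22.5%. The higher ones were irs2 and socs3, an inhibitor of receptor signalling, at 2.71 and 10.5 RPKM.

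At PI3K itself pik3r1 had the highest RPKM of the listed genes at 12 °C. Its only regulatory relative in the table, pik3r2, measured 1.84, 1.56, 1.31 and 0.785 RPKM (log2 fold -0.67 at 28 °C). The inhibitor gene pik3ip1 measured 20.6, 11.1, 9.72 and 5.54 RPKM, 2-fold lower at 28 °C (-1.72). The catalytic subunit gene pik3cb was at 0.769 RPKM in the coldest and 2.47 RPKM in the warmest library (0.97), and the class II kinase gene pik3c2b at 0.722 and 2.65 RPKM (1.08). Of the AKT list, 1 of 5 genes with the minimum level was lower at 18 °C and 2 of 5 at 23 °C, with 0 higher. Over all genes 2.68% and 10.8% were lower. The lower genes were trib1 (log2 folds -1.03 at 18 °C and -1.54 at 23 °C) and gsk3b (-1.03 at 23 °C). After median scaling trib1 at 18 °C was at -0.92 and gsk3b at 23 °C at -0.69. At 28 °C 1 of 6 genes of the list was higher and 1 lower, where 34.2% of all genes were higher and 22.5% lower. These were akt3b, an AKT kinase gene, at 0.847 and 6.81 RPKM, and tbc1d4, an AKT substrate in glucose transporter traffic, at 4.46 and 1.38 RPKM (-1.20, and -0.88 after median scaling).

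Among the sestrins, sesn1 was not alone at high level. sesn4 measured 68.9, 46.1, 40.1 and 18.7 RPKM, lower at each step as sesn1 was, with a log2 fold of -1.83 at 28 °C. sesn2 had another profile, at 4.08, 1.49, 2.18 and 4.48 RPKM, low in the middle and back at 28 °C. Of the 6 other genes of the sestrin and amino acid sensing list, sesn2 among them, all had the minimum level. At 28 °C 2 were higher and 0 lower, where 34.2% of all genes were higher and 22.5% lower. The median log2 fold of the list was -0.29, against 0.02 over all rows. Lower but short of 2-fold on RPKM + 1 were wdr24 (-0.91), kptn (-0.78) and itfg2 (-0.70). The last pair were named after their values were seen. The list does not hold sesn4, which was lower. The higher ones were sec13, a coat protein gene shared by the amino acid sensing complex and secretory vesicles, at 6.05 and 32.6 RPKM, and fnip1, a partner of folliculin, at 3.56 and 10.1 RPKM.

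Downstream at mTOR, 0 of 8 genes were 2-fold apart at 18 or 23 °C. At 28 °C 4 were lower and 2 higher, where 22.5% of all genes were lower and 34.2% higher. The median over the 9 rows was -0.90, against 0.02 over all rows. The genes named by rule are brakes on mTOR or on translation. deptor, an inhibitor bound to mTOR, measured 8.43, 7.19, 4.40 and 0.666 RPKM (log2 fold -2.50 at 28 °C). eif4ebp3, a translation repressor that mTOR inactivates, measured 164.2, 135.8, 113.1 and 37.5 RPKM (-2.10). pdcd4a, another repressor of translation, was at 33.2 and 12.1 RPKM (-1.38, and -0.90 after median scaling). ddit4, a stress-induced inhibitor of mTOR, was higher at 10.6 and 34.4 RPKM (1.61). The other genes past 2-fold, named after their values were seen, were rps6kb1b and eif4ea. rps6kb1b, a kinase through which mTOR promotes translation, was lower at 36.01 and 13.7 RPKM. Its log2 fold of -1.33 was smaller in size than that of pdcd4a. The cap-binding gene eif4ea was higher at 0.0564 and 2.39 RPKM.

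**Figure D3:**
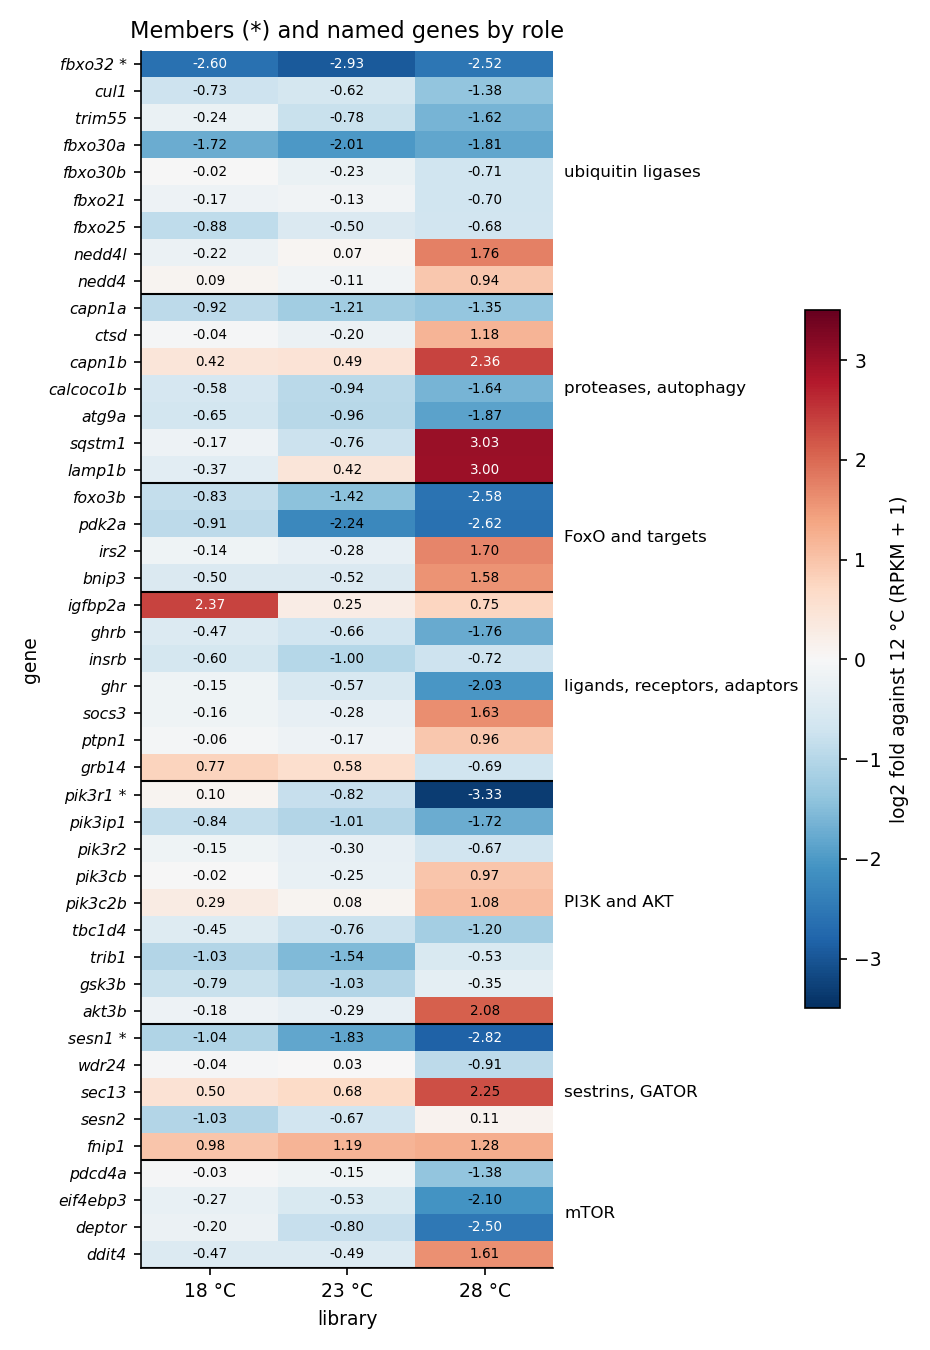
Rows are fbxo32, pik3r1 and sesn1 (asterisks) and the named genes of 11 lists, grouped by role. Columns are the 18, 23 and 28 °C libraries, and colour and printed value give the log2 fold of RPKM + 1 against 12 °C, blue for lower and red for higher. Blue and red stand side by side at 28 °C in most groups, for example atg9a at -1.87 with sqstm1 at 3.03, and deptor at -2.50 with ddit4 at 1.61.

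fbxo32 and sesn1 are also textbook targets of other regulators. Of the glucocorticoid response list, 4 of 9 genes were lower at 23 °C and 0 higher, and at 28 °C 3 of 10 were lower and 3 higher, against 10.8% of all genes lower at 23 °C and 22.5% lower and 34.2% higher at 28 °C. Its member glula, glutamine synthetase, measured 72.1, 20.3, 9.20 and 14.6 RPKM, and klf9, a transcription factor gene induced by glucocorticoids, 12.6, 8.33, 2.13 and 3.57 RPKM. The 3 higher at 28 °C, named in this list after their values were seen, were errfi1, ddit4 and cebpb, with log2 folds of 2.08, 1.61 and 1.55. The high values of tat and mt2 at 18 °C, 8.82 and 339.9 RPKM, stood in the library with the liver markers, whose part was not tested. Of the p53 list without sesn1, 3 of 6 genes were higher at 28 °C and 2 lower, few genes beside the same shares over all genes, with plk3 at 2.0 and 9.34 RPKM and the ribonucleotide reductase gene rrm2b at 10.01 and 3.21 RPKM (-1.39, and -0.97 after median scaling).

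Over the 135 genes of all 15 lists together, with the 3 described genes left out, the directions were mixed. At 18 °C 7.5% of the 80 with the minimum level were higher and 6.25% lower, where all genes of the table gave 7.66% and 2.68%. At 23 °C 2.60% of 77 were higher and 18.2% lower, against 2.98% and 10.8%. At 28 °C 26.5% of 83 were higher and 31.3% lower, against 34.2% and 22.5%. Median scaling lowered the number at 28 °C that were lower from 26 to 15 and raised the number higher from 22 to 30, and sum scaling gave 25 and 26, so the larger direction turned with the scaling. Scaling moves all genes, and the shares over all genes after scaling are not given here. Whether the listed genes then differ from all genes cannot be read from these counts.

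Which genes came closest to each profile was read from the distance between the log2 folds at 18, 23 and 28 °C, over 1031 other genes with a symbol, values above 0 and a mean of at least 5 RPKM. For sesn1 the match was close, at 0.17 log2 units for mast4, a kinase gene (12.2, 5.10, 3.11 and 0.829 RPKM), and 0.18 for lrtm1 (15.0, 7.62, 3.84 and 1.32 RPKM). The splicing regulator mbnl1, the muscle cofactor vgll2b and wbp1l followed at 0.34, 0.35 and 0.35. For pik3r1 the nearest were the calcium channel subunit gene cacng6 at 0.45 (25.0, 19.6, 13.3 and 1.77 RPKM), the myosin light chain kinase gene mylk4a at 0.46, clk2b at 0.60, phtf2 at 0.68 and the splicing regulator rbfox1l at 0.71. For fbxo32 none of these candidates was as close. Its median distance to all of them was also larger, at 4.22, against 3.03 for pik3r1 and 2.94 for sesn1. Nearest to fbxo32 were glula at 0.87, the amino acid transporter gene slc7a5 at 1.02, slc35e4 at 1.49, vgll2b at 1.68 and pdk2a at 1.82. These likenesses rest on 4 libraries, and correlation in place of distance named none of the same genes.

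**Figure D4:**
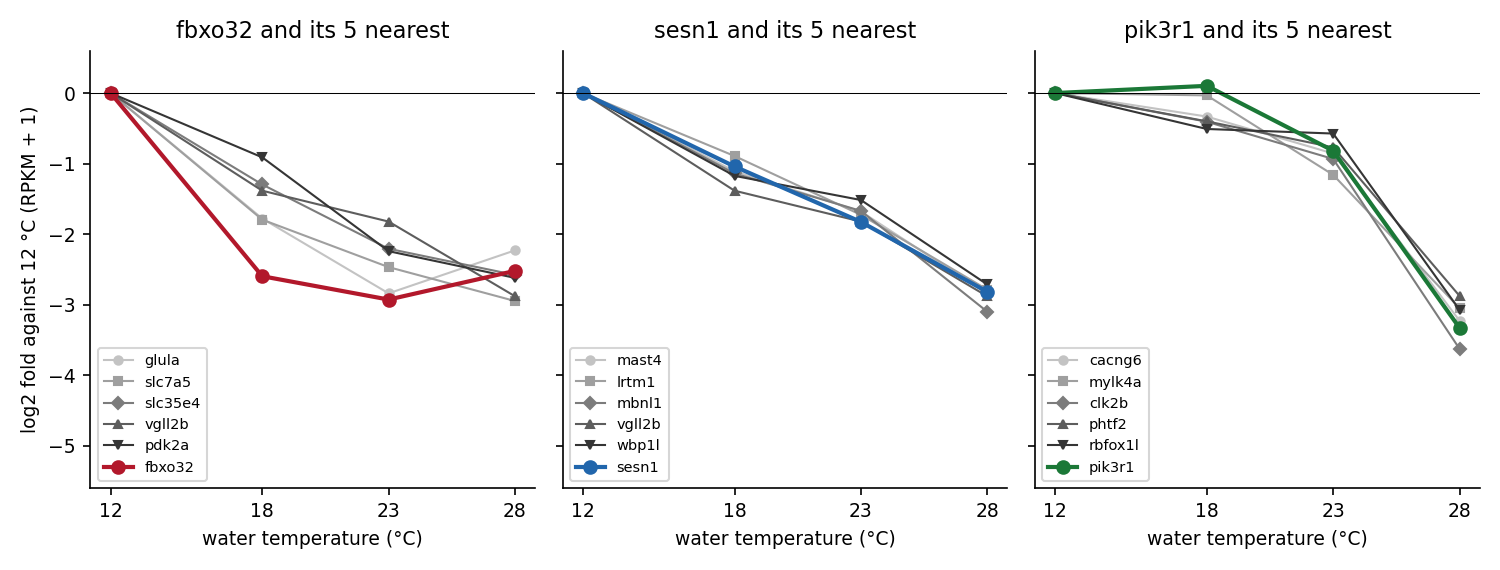
Each panel shows 1 described gene (thick coloured line) and its 5 nearest genes (grey lines), with water temperature on the horizontal axis and the log2 fold of RPKM + 1 against 12 °C on the vertical axis. The sesn1 lines nearly coincide, the pik3r1 lines bend after 23 °C, and fbxo32 lies below its nearest genes at 18 °C, at -2.60 against -1.78 for glula.

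Among the listed genes alone, ranked after their values were seen, the nearest to pik3r1 was deptor, at a distance of 0.88, with 17 of 4237 genes of at least 1 RPKM on average as near or nearer. pik3r1 stood at 5.12, 6.45, 5.46 and 5.09 times the level of deptor in the 4 libraries. For sesn1 the nearest were pdk2a at 0.48 and foxo3b at 0.51, and sesn1 stood at 3.37, 3.01, 2.72 and 3.71 times foxo3b. For fbxo32 they were glula at 0.87 and fbxo30a at 1.46.

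The direction of each of the 3 genes at 28 °C did not depend on the scaling. Against 12 °C the log2 fold at 28 °C ranged from -2.73 to -2.03 for fbxo32, from -3.13 to -2.36 for sesn1 and from -3.81 to -2.92 for pik3r1 over the 6 settings tried. In the authors' deposited table the values at 28 °C, recast from natural log to log2, were -2.73, -3.13 and -3.81 in the same order. At 23 °C pik3r1 ranged from -0.84 to -0.31, short of 2-fold in all 6.

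**Figure D5:**
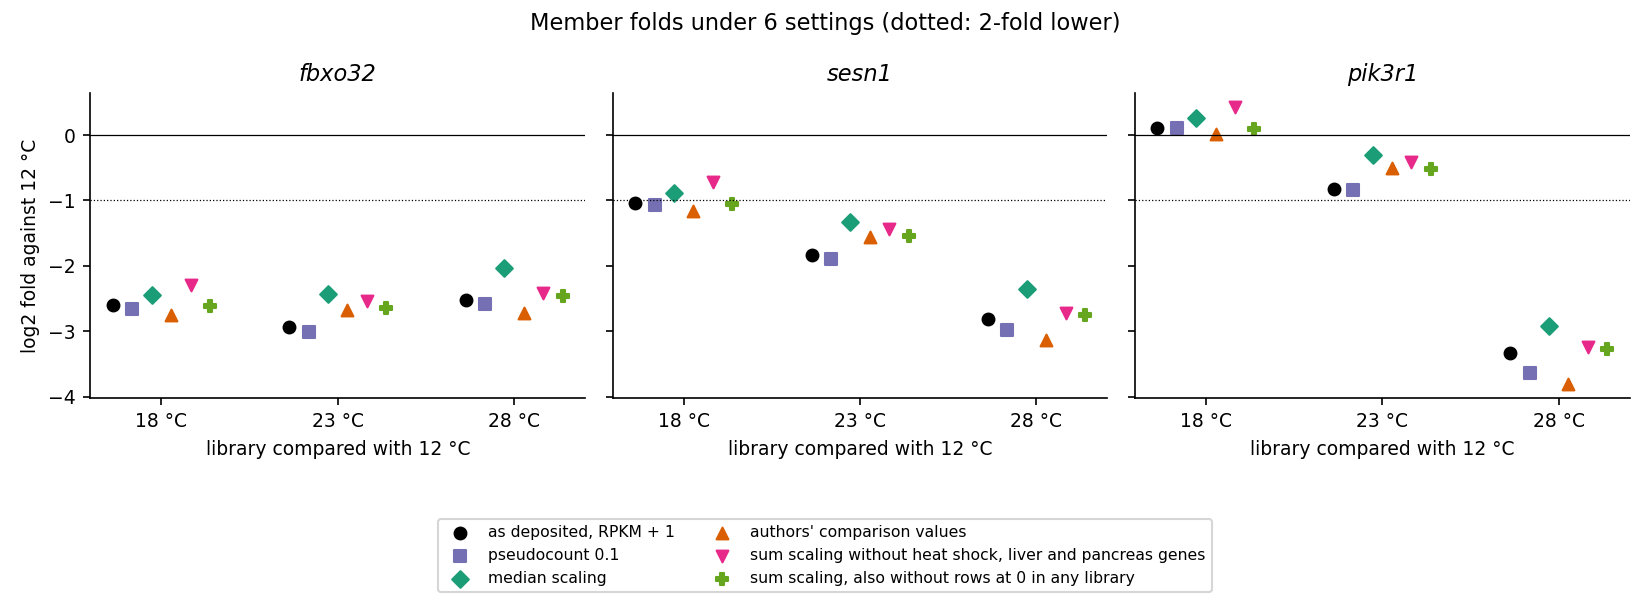
Points give the log2 fold against 12 °C (vertical axis) of each described gene at 18, 23 and 28 °C under 6 settings, 1 marker each, and the dotted line marks 2-fold lower. All fbxo32 points lie below the line, the sesn1 points at 18 °C lie on both sides of it, and the pik3r1 points lie below it at 28 °C alone.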

How the data were processed

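The authors' deposited table gives RPKM per gene for 4 muscle samples of series C, per the file headers. The other 20 of the 24 labelled samples were not analysed here. Per the submitters' processing notes, TopHat2 and Cufflinks were used, with no version listed; the sources used here give no build or annotation. The authors' comparison columns hold natural log values, although their headers say log2: 11635, 11641 and 11633 rows match ln(RPKM ratio) plus a fixed offset to within 1e-05, the offsets being factors of 0.942, 1.27 and 0.910. All 11646 rows are at least 2-fold apart in 1 or more of these comparisons, so the table is a selection of genes. Of 7526 numbered rows, 5841 were found in the RefSeq table of assembly ASM2471397v2 and 2791 took a symbol from it; it was used for names alone. RefSeq lists 1, 3 and 2 transcripts for fbxo32, pik3r1 and sesn1, and whether the authors' values sum transcripts is not stated.

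Folds were log2 of RPKM + 1, with a 2-fold call at a pair mean of at least 1 RPKM (Python 3.11.15, numpy 2.4.6, pandas 2.3.3). The code was run on simulated data with changes well past 2-fold and a small assumed noise. That run checks the code and says nothing on how reliable the calls made here are. The 3 genes and the lists were chosen with earlier results of these data known. Named list genes have a mean of at least 1 RPKM and are the up to 4 with the largest fold against 12 °C per list, plus paralogs of the 3 genes. Median scaling divides each library by its median ratio to the mean library, and sum scaling by its summed RPKM without heat shock, liver and pancreas genes.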

Additional observations from a re-analysis of the deposited data

How the results depend on the processing

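Of 69 values of the 3 described genes under other settings, 63 kept their direction and side of the 2-fold line and 0 of the called ones reversed. sesn1 at 18 °C was short of 2-fold at -0.88 (median scaling) and -0.72 (sum scaling), and from 23 to 28 °C past it at -1.08 (pseudocount 0.1), -1.03 (median scaling), -1.29 (sum scaling) and -1.22 (sum scaling without rows at 0, an alternative chosen after seeing the data). The log2 scaling factors of the 18, 23 and 28 °C libraries against 12 °C were -0.16, -0.53 and -0.52 for median scaling. For sum scaling they were -0.33, -0.42 and -0.12, and dividing by factors below 0 in log2 raises the folds. Sum scaling keeps mylpf and atp2a1l, listed at 0 in the 18 and 23 °C libraries, respectively. Without rows at 0 its factors were 0.01, -0.31 and -0.07. The median log2 folds of all genes with the minimum level were -0.11, -0.33 and 0.01. Of 840 values of other named genes, 31 fell short of 2-fold, 46 passed it and 0 called ones reversed.

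Counts over the lists are given as higher or lower. At 18 °C the 6 higher became 10 with pseudocount 0.1 and 10 with the authors' values, and 2 with a minimum of 5 RPKM; the 5 lower became 2 by median scaling, 2 by sum scaling, 11 with the authors' values and 3 with the stricter minimum. At 23 °C the 2 higher became 4 by median or sum scaling and 5 with the authors' values, and the 14 lower became 6, 8 and 9 by median scaling, sum scaling and sum scaling without rows at 0. At 28 °C the 22 higher became 12 with the stricter minimum, and the 26 lower became 15 by median scaling and 45 with the authors' values. From 18 to 23 °C the 0 higher became 1 by median scaling and 1 by sum scaling without rows at 0, and the 10 lower became 5 with the stricter minimum. From 23 to 28 °C the 26 higher became 12 and the 8 lower 4 with the stricter minimum, and the 8 became 17 by sum scaling and 14 without rows at 0. Stricter minima test fewer genes; for the rest the cause was not tested.

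Of the 5 nearest genes, 3, 3 and 1 were shared with pseudocount 0.1 for fbxo32, pik3r1 and sesn1, 0 with correlation, and 4, 2 and 3 without the 18 °C library, chosen after seeing the data. The muscle marker sum at 28 °C against 12 °C was 0.773 times and 0.417 times without smyd1, also chosen after seeing the data. Without smyd1 the sum was mostly pvalb1. No paired analysis was possible because each temperature has 1 library. With no counts and no replicates, no interval can be given. A planned search for motifs in promoters was not run.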

Other observations

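A pair of lists not described above held few genes at the minimum level. In the list of AMPK, the energy-sensing kinase, prkag3a, a muscle regulatory subunit gene, measured 4.06, 13.5, 19.4 and 6.02 RPKM from the coldest to the warmest library, high at the middle temperatures. Its duplicate prkag3b measured 30.2, 30.3, 32.1 and 15.9 RPKM. In the list of myostatin, activin and BMP signalling, of which myostatin and activin restrain muscle growth, 1 of 3 genes was higher at 28 °C and 1 lower. Over all genes 34.2% were higher and 22.5% lower. The lower gene was the activin receptor gene acvr1ba at 2.19 and 0.450 RPKM (log2 fold -1.14, and -0.96 after median scaling).

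The routes of the 3 described genes were defined after their values were seen. They were counted on folds of RPKM + 1, over 4238 genes with a mean of at least 1 RPKM. A 2-fold lower level at 18 °C followed by steps within 2-fold was met by 67 genes (1.58%), among them fbxo32, sesn1, fbxo30a and sesn2. A lower level at each step with 2-fold at 28 °C was met by 674 genes (15.9%), among them sesn1 and foxo3b. A level within 2-fold at 18 °C with a 2-fold lower level both from 23 to 28 °C and at 28 °C against 12 °C was met by 262 genes (6.18%), among them pik3r1, deptor and eif4ebp3.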
